A study of Zea mays with 109 samples.

Results

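A set of 406 circular RNAs (circRNAs) had a value above 0 in all 26 circRNA libraries of a maize tissue collection, which listed 61936 circRNAs. They made up 0.656% of the circRNAs listed, and are called the ubiquitous circRNAs here. In contrast, 37516 circRNAs, or 60.6%, were above 0 in 1 library only. The libraries came from untreated plants of the inbred line B73, kept in a greenhouse at 25 °C with 12 h of light a day. For each tissue, RNA of 3 replicates with 5 to 10 plants each was mixed in equal parts, so 1 library stood for 1 tissue. By the tissue names, 6 libraries were inflorescence (2mm Ear, 5mm Ear, 1cm Ear, 2mm Tassel, 1cm Tassel and 1 named Inflorescence) and 3 were SAM, short for the shoot apical meristem (V1, V3 and V4). A further 2 were root (Primary Root at V1 and at 6DAS), 2 were stem (Stem and Internode at V6), 1 was Embryo at R2 and 1 was Endosperm at R2. The other 11 were leaf. Of these, 8 were pairs of an L and an N library from the base and the tip of the Stage 2 leaf at V5 and from the First Leaf and the Topmost Leaf at V3. The last 3 were the Third Leaf at V3, Ear leaf and Husk leaf. The labels do not explain the letters L and N, and stages are written as the labels give them. The table names no genes, so the tissues could not be checked against marker genes.

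A circRNA is a closed loop that forms when the splicing machinery joins the end of an exon to the start of the same or an upstream exon, a reaction called back-splicing. A loop has no free ends, which protects it from the enzymes that degrade linear RNA from its ends, and circRNAs can therefore be long-lived. Sequencing recognises them by reads that cross the back-splice junction, and most circRNAs have few such reads. The ubiquitous circRNAs carry names of the form ZmCirc with a number. The sources used here pair these names with no gene, position, length or sequence, so no host gene or role is given, and abundance is compared between circRNAs only as shares of reads, without correction for length.

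The deposited values, named CPM by the authors, are called signal here. Within a library, every value above 0 was a whole multiple of the smallest one, within a tolerance of 0.001, and this smallest value was taken as the signal of 1 read. The libraries held 17289 to 107480 recovered reads, with a median of 40200.5. A level is given below either as the deposited signal or as a share, the percentage of a library's recovered circRNA reads. The summed signal differed strongly between libraries, from 781782 in the Third Leaf to 4478090 in 1cm Tassel, whereas shares sum to the same total in every library. The 2 scales gave different counts of organ differences, and both are given.

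The ubiquitous circRNAs held 571573 of 1171071 recovered reads, or 48.8%. Their share was lowest in Endosperm at 42.5% (95% exact binomial interval 42.0 to 42.9%) and highest in Husk leaf at 53.7% (53.2 to 54.2%), with a median of 48.9% over the 26 libraries. Intervals cover counting error only. The 6 inflorescence libraries held 53.4, 49.3 and 49.5% in the 2mm, 5mm and 1cm Ear, 46.8 and 51.2% in the 2mm and 1cm Tassel and 50.2% in Inflorescence. The leaf libraries held 42.7 to 53.7% with a median of 49.3%, so that the ranges of both classes overlapped. The SAM libraries held 44.7, 49.0 and 48.8% at V1, V3 and V4, the roots 46.9 and 45.1% at V1 and 6DAS, and Stem and Internode 50.7 and 48.5%. Embryo held 48.3%. The members were chosen by these values, so the share is a description without a test. Counted as circRNAs instead of reads, the same 406 were 3.14% of the 12911 circRNAs above 0 in 1cm Tassel, the library with the most reads, and 12.9% of the 3151 above 0 in Embryo, which had 21556 reads.

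**Figure D1:**
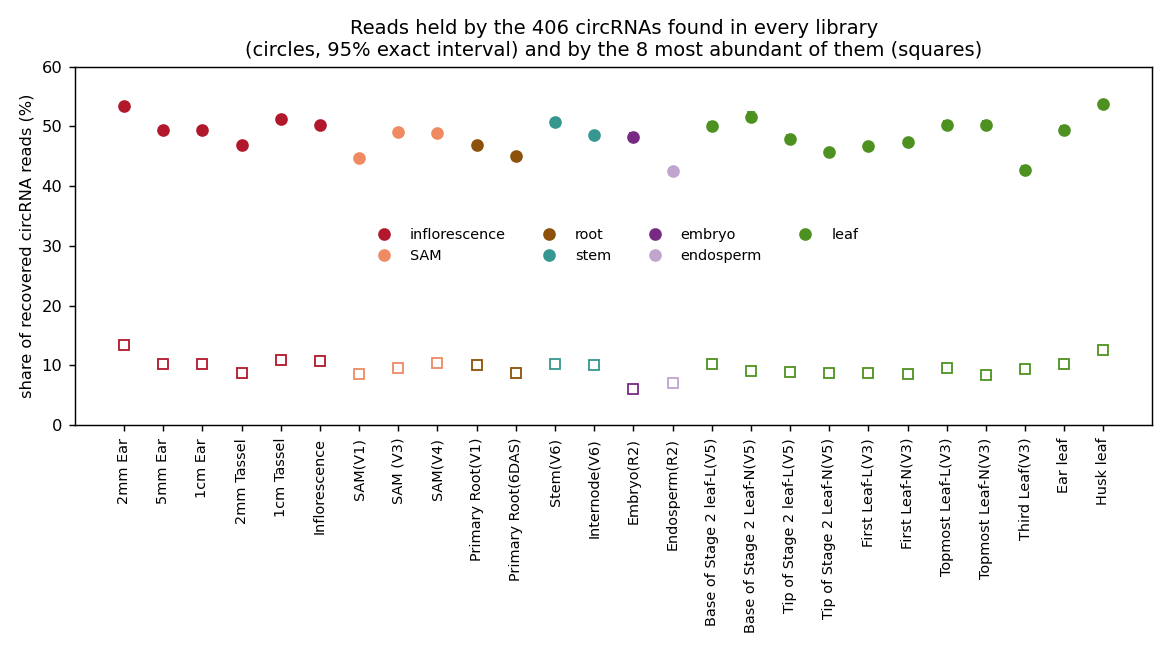
Share of recovered circRNA reads (%) in each of the 26 libraries, coloured by organ class. Circles show the 406 ubiquitous circRNAs with the 95% exact binomial interval, which is mostly narrower than the symbol, and squares show the 8 most abundant of them. The circles lie between 42.5% in Endosperm and 53.7% in Husk leaf, and the squares between 6.12% in Embryo and 13.4% in 2mm Ear.

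The set shrank quickly as more reads were required. A ubiquitous circRNA had a median of 670 reads over all libraries, with a range of 117 to 26724. In its poorest library it had a median of 4 reads, and 81 of the 406 had 1 read in at least 1 library. Asking for at least 2, 5, 10 or 50 reads in every library left 325, 166, 86 and 9 circRNAs. At least 100 reads in every library were found for 3, named after their values were seen: ZmCirc007160 with at least 240, ZmCirc044048 with at least 125 and ZmCirc006628 with at least 112. Just outside the rule were 208 circRNAs found in exactly 25 libraries, with a median of 269 reads and a range of 74 to 3244. Of these, 76 were missing in Embryo alone, 24 in 2mm Ear alone and 16 in SAM at V1 alone. Without the requirement for Embryo, an alternative added after the data were seen, the set would hold 482 circRNAs.

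Most of the abundant circRNAs of the collection were ubiquitous. Ranked by mean share with all libraries weighted equally, 48 of the top 50 and 93 of the top 100 circRNAs belonged to the set. Rank and membership come from the same reads, and many reads favour membership, so this is a description without a test. The most abundant circRNA outside it, ZmCirc024928, ranked 16th with a mean share of 0.480%. It had 144 to 525 reads in each of the 11 leaf libraries and 0 in the other 15. The next ones outside it, ZmCirc032534 at rank 35 and ZmCirc026325 at rank 55, were at 0 in Embryo alone. Within the set, reads were concentrated in few members. The 8 most abundant held a mean of 9.57% of all circRNA reads and the top 50 held 24.3%, which was 50.1% of the mean share of the 406.

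ZmCirc007160 was the most abundant circRNA, with a mean share of 2.24%. It held 4.73, 3.22 and 3.05% of reads in the 2mm, 5mm and 1cm Ear, 2.84 and 2.13% in the 2mm and 1cm Tassel and 1.83% in Inflorescence. In leaf it ranged from 1.24% in the Third Leaf to 2.85% in Ear leaf, with a median of 2.16%. Its ear shares therefore lay above all leaf shares, while those of both tassels and the Inflorescence library lay within the leaf range. By signal, every inflorescence library, at 60867 to 98738, lay above every leaf library, the highest being First Leaf N with 49810. ZmCirc001962, with a mean share of 1.36%, had its highest shares in the roots, 3.39% at V1 and 2.51% at 6DAS. In the leaf libraries it ranged from 0.350% in Ear leaf to 2.43% in the Third Leaf, so that both roots lay above every leaf. ZmCirc006628, with a mean of 1.16%, was at 1.79, 1.30 and 1.78% in SAM at V1, V3 and V4 and at 1.11 to 1.68% in inflorescence (median 1.48%), against 0.486 to 1.36% in leaf (median 0.833%).

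The other 5 of the 8 included members with high leaf shares. ZmCirc004467, with a mean share of 1.13%, was at 0.468 to 0.821% in inflorescence (median 0.606%) and at 0.856 to 2.42% in leaf (median 1.65%), without overlap. By signal both classes overlapped, with 10043 to 35248 in inflorescence and 9381 to 43964 in leaf. Stem and Internode, at 1.52 and 1.58%, lay within the leaf range. ZmCirc039128, with a mean of 1.09%, reached 3.74% in Husk leaf. It was at 0.202, 0.367 and 0.414% in the 2mm, 5mm and 1cm Ear and at 0.349 and 0.977% in the 2mm and 1cm Tassel. ZmCirc044048, with a mean of 0.963%, had the smallest spread of share of all 406, with an SD of 0.300 on the log2 scale. All its libraries lay between 0.647% in the Third Leaf and 1.16% in 2mm Tassel, apart from 2.02% in 2mm Ear. ZmCirc012182, with a mean of 0.730%, lay between 0.310% in Endosperm and 1.37% in Ear leaf. ZmCirc033296, with a mean of 0.892%, varied most of the 8 and is described with the organ differences.

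**Figure D2:**
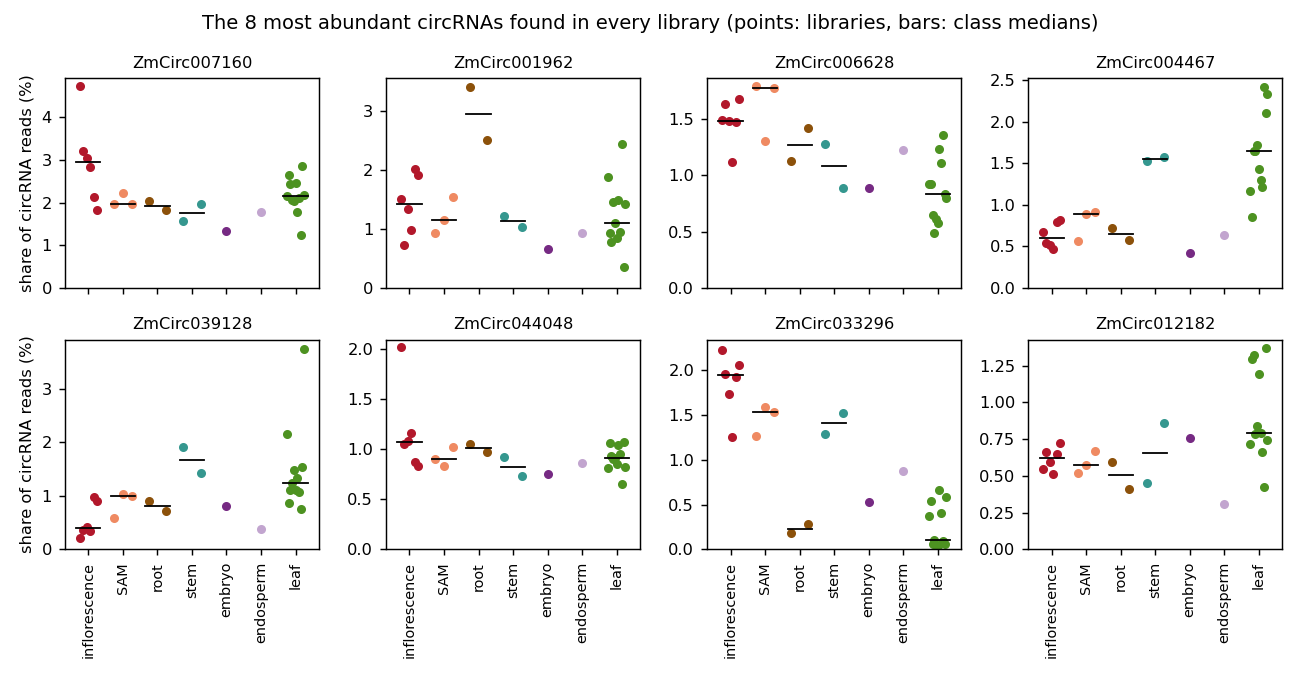
Share of recovered circRNA reads (%) of the 8 most abundant ubiquitous circRNAs by organ class. Each point is 1 library and each bar the median of a class with at least 2 libraries. The ears reach 3.05 to 4.73% for ZmCirc007160 and the roots 2.51 and 3.39% for ZmCirc001962. The inflorescence and leaf shares of ZmCirc033296 and ZmCirc004467 do not overlap, whereas the signals of ZmCirc004467 do.

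Being present everywhere did not mean being even. The ratio of the highest to the lowest signal of a ubiquitous circRNA had a median of 17.8 and a range of 3.27 to 587. The SD of the log2 signal over the 26 libraries had a median of 1.00 and a range of 0.472 to 2.84, and that of the log2 share a median of 0.822 and a range of 0.300 to 2.55. The most even by signal were ZmCirc020599, ZmCirc051266, ZmCirc046480 and ZmCirc039211, with SDs of 0.472, 0.474, 0.538 and 0.556. ZmCirc020599 lay between a signal of 1347 in Embryo and 5625 in 1cm Tassel. ZmCirc051266 had the smallest ratio of highest to lowest signal in the set, 3.27. The most variable were ZmCirc043640, ZmCirc033296, ZmCirc026162 and ZmCirc026344, with SDs of 2.84, 2.37, 2.27 and 2.04. ZmCirc026162 spanned the largest range of the set, from 1 read in Embryo to 613 reads in the tip of the Stage 2 leaf N, a 587-fold difference in signal. All 4 variable members were called between inflorescence and leaf below. They were chosen by their spread over the same libraries, which favours such calls, so these add no separate evidence.

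Organ classes were compared with limma on log2(signal + 27.7), where 27.7 is the smallest value above 0 in the table. One fit covered all 26 libraries, and p-values were adjusted over the 8989 circRNAs above 0 in at least 5 libraries, which included all 406. A call required a p under 0.05 after Benjamini-Hochberg adjustment and a log2 fold change of at least 1 in size. Because no tissue had replicate libraries, tissues of a class were the units, and a p-value here reflects the spread between tissues of different age and position. The L and N libraries of a leaf position deviated together, so the p-values of comparisons with leaf may be too small. With the N library of each pair left out, limma called 200 ubiquitous circRNAs (49.3%) in inflorescence against leaf, 192 higher and 8 lower. Of all circRNAs tested in that fit, 31.7% were called, 28% higher and 3.69% lower. The SAM, root and stem comparisons were not run in this way. The pseudocount understates the change of low values. All comparisons with leaf share the same 11 leaf libraries. In a moderated F test over the 5 classes with at least 2 libraries, at an adjusted p under 0.05, 201 ubiquitous circRNAs (49.5%) differed, against 33.5% of all circRNAs tested. With each library rescaled to its own circRNA sum, 166 differed, against 25.4%. The circRNAs tested differ in read number, and the part of depth in these percentages was not tested.

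The inflorescence libraries had higher signals than leaf for 189 ubiquitous circRNAs and lower signals for 12. Over all circRNAs tested, 34.0% were called, 29.8% higher and 4.15% lower. The median log2 fold change was 0.94 over the ubiquitous circRNAs and 0.63 over all tested. Most of the higher calls depended on the scale. After each library was rescaled to its own circRNA sum, 66 were higher and 70 lower, against 17.1% higher and 5.87% lower of all tested, and the median log2 fold change was -0.14 over the ubiquitous circRNAs and 0.41 over all tested. Of the 189 higher calls, 66 stayed higher on the rescaled values and 123 were not called, while all 12 lower calls stayed lower and were joined by 58 others. Leaving out 1cm Tassel, which had the largest signal sum, gave 177 higher and 25 lower on the deposited scale, against 27% and 4.62% of all tested. Every inflorescence library lay above every leaf library in signal for 101 ubiquitous circRNAs and below for 2, against 6.32% and 0.567% of all circRNAs tested. By share these numbers were 35 and 28, against 3.01% and 1.61%. A circRNA at 0 in any library of the higher class cannot meet this condition. The inflorescence libraries held 41661 to 107480 reads and the leaf libraries 17289 to 38740, so depth and organ cannot be told apart in this comparison.

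**Figure D3:**
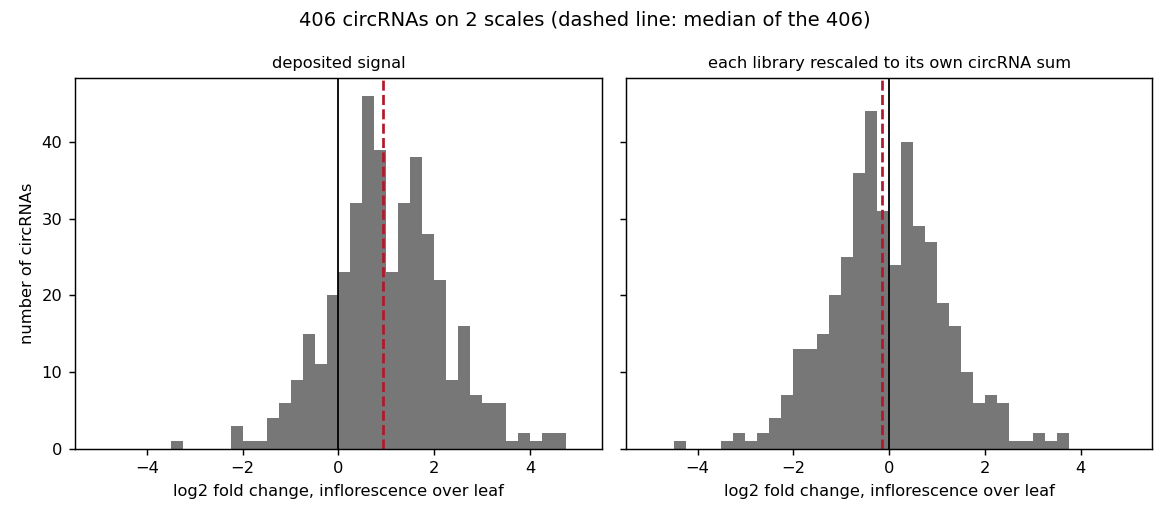
Number of ubiquitous circRNAs by log2 fold change of inflorescence over leaf, on the deposited signal (left) and with each library rescaled to its own circRNA sum (right). The solid line marks 0 and the dashed line the median of the 406, which is 0.94 on the deposited scale and -0.14 on the rescaled one.

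ZmCirc033296 and ZmCirc043640 showed the largest increases in inflorescence among the ubiquitous circRNAs on the deposited and the rescaled signal. With edgeR and TMM factors ZmCirc026344 and ZmCirc003129, at 3.72 and 3.67, exceeded the log2 fold change of ZmCirc033296, 3.28, and with DESeq2 they did so too. The signal of ZmCirc033296 was 40207, 60060 and 45969 in the 2mm, 5mm and 1cm Ear, 26995 and 86329 in the 2mm and 1cm Tassel and 74611 in Inflorescence. In leaf it ranged from 640 to 11088 with a median of 1289. The groups did not overlap, and the log2 fold change was 4.61 (SE 0.471, limma adjusted p = 2.88e-10). Within leaf its values fell apart: the Topmost Leaf L and N, the Stage 2 base L and N and Husk leaf had 9749, 4919, 4999, 5947 and 11088, and the other 6 leaf libraries had 640 to 1289. Its shares were separated in the same way, with 1.26 to 2.23% in inflorescence (median 1.94%) against 0.0315 to 0.661% in leaf (median 0.0987%). On the rescaled values its log2 fold change was 3.52. The roots, at 0.181% at V1 and 0.282% at 6DAS, lay within the leaf range, and the SAM libraries, at 1.27, 1.59 and 1.53% at V1, V3 and V4, within the inflorescence range.

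ZmCirc043640 had 59038 in 1cm Tassel and 7708 to 16215 in the other 5 inflorescence libraries, against 121 to 2163 in leaf (median 507). The log2 fold change was 4.60 (SE 0.457, limma adjusted p = 1.35e-10), or 4.21 without 1cm Tassel. Its leaf values rested on 2 to 45 reads a library. ZmCirc026344 was at 15382 to 29861 in inflorescence (median 17798) and at 283 to 2480 in leaf (median 1003), and its log2 fold change was 4.36 (SE 0.340, limma adjusted p = 2.88e-13). ZmCirc003129 was at 10363 to 18714 in inflorescence (median 12200) and at 219 to 1410 in leaf (median 640), with a log2 fold change of 4.30. In each of these 3 circRNAs the lowest inflorescence library lay above the highest leaf library. The remaining members of the 8 with the largest increase were ZmCirc046886, ZmCirc060390, ZmCirc034207 and ZmCirc034395, with log2 fold changes of 4.11, 3.80, 3.76 and 3.50. ZmCirc046886 had the most even inflorescence shares of them, 0.228 to 0.286% (median 0.249%), against 0.00946 to 0.0902% in leaf (median 0.0387%). All 8 were also called with higher values in inflorescence on the rescaled scale, with log2 fold changes of 2.48 to 3.54.

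ZmCirc026162 had the largest decrease in inflorescence relative to leaf. It had 875 to 3208 in inflorescence (median 1166) and 6128 to 29273 in leaf (median 12506), and the groups did not overlap. The log2 fold change was -3.37 (SE 0.332, limma adjusted p = 1.2e-10). As a share of reads it held 0.0286 to 0.0716% in inflorescence and 0.325 to 2.24% in leaf, with the lowest leaf value in Husk leaf. ZmCirc061360 followed with a log2 fold change of -2.19, then ZmCirc001460 and ZmCirc024698 with -2.07 each. ZmCirc024698 was scarce, with 1 to 10 reads in an inflorescence library and 7 to 46 in a leaf library. ZmCirc001461, ZmCirc024729, ZmCirc039124 and ZmCirc024310 had log2 fold changes of -1.85, -1.55, -1.44 and -1.37. The call of ZmCirc039124 was lost without the filter on low values and with edgeR on the deposited scale (adjusted p = 0.104 and 0.103). ZmCirc001460 was at 1342, 912 and 1699 in the 2mm, 5mm and 1cm Ear, 320 and 7500 in the 2mm and 1cm Tassel and 4066 in Inflorescence. In leaf it was at 4766 to 17313 (median 6113), so the 1cm Tassel overlapped with leaf in signal. By share there was no overlap, with at most 0.167% in inflorescence and at least 0.440% in leaf. All 8 were called lower on the rescaled values too, with log2 fold changes of -4.48 to -2.48.

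**Figure D4:**
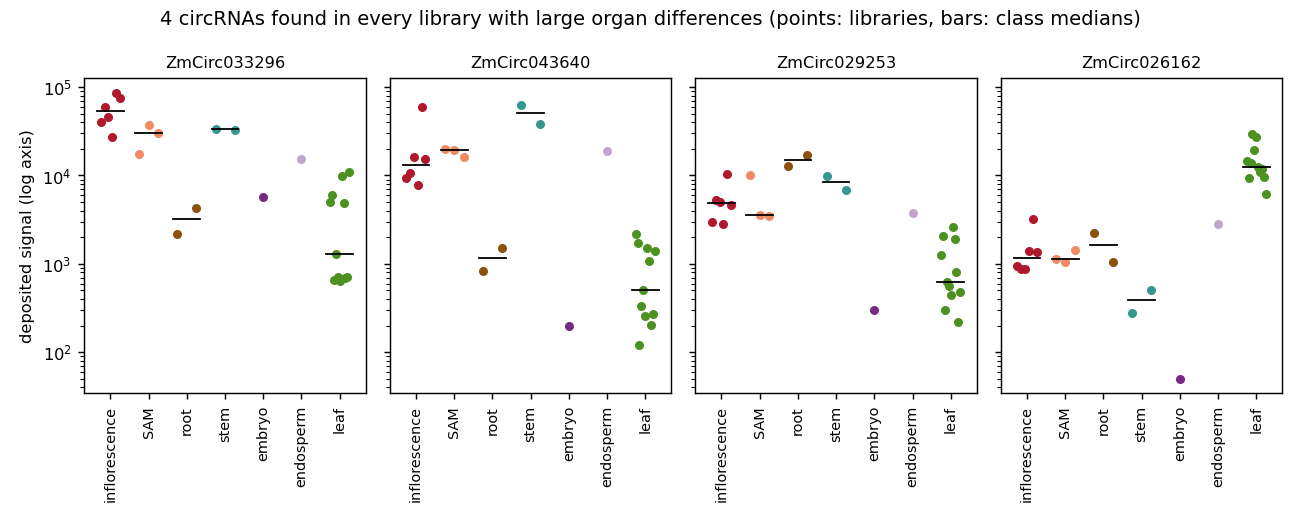
Deposited signal (log axis) of 4 ubiquitous circRNAs with large organ differences. Points are libraries and bars are medians of classes with at least 2 libraries. ZmCirc033296 and ZmCirc043640 are high in inflorescence, SAM and stem, ZmCirc029253 is highest in the roots (12924 and 16922), and ZmCirc026162 is highest in leaf (6128 to 29273).

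SAM libraries had higher signals than leaf for 66 ubiquitous circRNAs and lower signals for 18, or 84 in all, against 14.5% of all circRNAs tested (11.9% higher and 2.56% lower). On the rescaled values 38 were higher and 46 lower, against 15.0% of all tested called (11.4% higher and 3.64% lower). Without V3 or V4 the count fell from 84 (20.7%) to 42 and 41 calls (10.3 and 10.1%), against 9.64 and 9.88% of all tested. Without V1 it was 75 (18.5%), against 14.1%. ZmCirc043640 showed the largest difference, with 20072, 19269 and 16300 in SAM at V1, V3 and V4 against 121 to 2163 in leaf (median 507). Its log2 fold change was 4.90 (SE 0.587, limma adjusted p = 8.09e-08). ZmCirc033296, with 17563, 37722 and 30408, and ZmCirc026344, with 4497, 18787 and 10651, had log2 fold changes of 3.69 and 3.37. All SAM values of these 3 lay above all leaf values. ZmCirc026162 was lowest relative to leaf, with 1136, 1040 and 1420 in SAM against at least 6128 in leaf. Its log2 fold change was -3.48 (SE 0.426, limma adjusted p = 1.27e-07). ZmCirc009615 followed at -2.28 and ZmCirc024698 at -2.26. In ZmCirc024698 the V1 library had 12 reads, against 2 each at V3 and V4. Its limma adjusted p was 0.122 without V3 and 0.142 without V4, and that of ZmCirc009615 was 0.0640 without V4. Without the filter on low values the limma adjusted p of ZmCirc024698 was 0.0986.

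Stem libraries had higher signals than leaf for 53 ubiquitous circRNAs and lower signals for 4, against 9.16% of all circRNAs tested (8.21% higher and 0.946% lower). The number of lower calls was near this background. On the rescaled values 14 were higher and 27 lower, against 6.07% called (4.41% higher and 1.67% lower). Stem and Internode held 55765 and 59236 reads, against at most 38740 in a leaf library, so depth and organ cannot be told apart here. With 1 stem library left in the fit, fewer were called, both among the ubiquitous circRNAs and among all tested. The median log2 fold change over the ubiquitous circRNAs was 0.86 without Internode and 0.64 without Stem, against 0.72 with both. ZmCirc043640 again stood out, with 62455 in Stem and 38201 in Internode against at most 2163 in leaf. Its log2 fold change of 6.30 (SE 0.693, limma adjusted p = 2.7e-08) was the largest of any named circRNA here. It held 2.41 and 1.77% of the reads of these libraries. ZmCirc033296, with 33504 and 32879, and ZmCirc029253, with 9991 and 6816, had log2 fold changes of 3.97 and 3.37. The call of ZmCirc029253 was lost without Stem (limma adjusted p = 0.0649). ZmCirc026162 had 279 and 510 in Stem and Internode, a log2 fold change of -5.06 (SE 0.503, limma adjusted p = 2.59e-09). ZmCirc007057 and ZmCirc045986 had log2 fold changes of -1.81 and -1.78, and their calls were lost without Internode (limma adjusted p = 0.184 and 0.840). That of ZmCirc007057 was also lost without Stem (limma adjusted p = 0.261). On recovered reads with the deposited scale, edgeR called neither (adjusted p = 0.0942 and 0.231). In ZmCirc045986 the 2 libraries differed, with 744 in Stem and 109 in Internode.

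Root libraries gave 6 higher and 9 lower calls, 15 in all, against 3.62% of all circRNAs tested (2.37% higher and 1.25% lower). The members' percentage of 3.69% was near this background. On the rescaled values 15 were higher and 26 lower, against 7.31% called (5.21% higher and 2.10% lower). The roots held 43082 and 43594 reads at V1 and 6DAS, against at most 38740 in a leaf library, so depth and organ cannot be told apart here. With 1 root library left in the fit, the calls fell to 1 without 6DAS and 2 without V1, and ZmCirc029253 was called in both cases. ZmCirc029253 had 12924 at V1 and 16922 at 6DAS, against 219 to 2610 in leaf (median 621). Its log2 fold change was 4.21 (SE 0.628, limma adjusted p = 1.94e-05). It held over 1% of the reads of each root library, and the next highest library by share was SAM at V1 with 0.723%. ZmCirc003379, with 6795 and 9977, had a log2 fold change of 2.67 (limma adjusted p = 0.0443), and ZmCirc034207, with 2219 and 1763, one of 2.65. ZmCirc051340 was scarce in roots, with 83.2 and 70.5, or 3 and 2 reads, against 219 to 2433 in leaf (median 1021). Its log2 fold change was -3.24. ZmCirc026162, with 2246 and 1058, and ZmCirc030109, with 555 and 952, had log2 fold changes of -3.11 and -2.62. The calls of ZmCirc003379, ZmCirc034207, ZmCirc051340 and ZmCirc030109 were lost without either root library, and that of ZmCirc026162 without 6DAS. The calls of ZmCirc003379 and ZmCirc030109 were also lost with a pseudocount 10 times larger (limma adjusted p = 0.0559 and 0.122) and without the filter on low values (0.160 and 0.221).

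Between ears and tassels limma called 0 of the 406 ubiquitous circRNAs, and 13 (3.20%) had an unadjusted p under 0.05, against 9.70% of all circRNAs tested. Of all circRNAs tested, 8 or 0.0890% were called, 0.0111% with higher and 0.0779% with lower values in ears. On the rescaled values 0 were called. edgeR with TMM factors called 2, ZmCirc030109 and ZmCirc042429, edgeR with the deposited scale called 1, ZmCirc030109, and DESeq2 called 0. These were named after their values were seen. ZmCirc030109 had 649, 3108 and 3449 in the 2mm, 5mm and 1cm Ear, 2271 and 25249 in the 2mm and 1cm Tassel, and 26697 in the Inflorescence library, which belonged to neither group. The 2mm Tassel lay within the range of the ears. Without 2mm Tassel, 1cm Tassel was the only tassel library left. ZmCirc001460, ZmCirc001461, ZmCirc024505 and ZmCirc042429 were picked from that fit after its values were seen. Their log2 fold changes were -2.53, -2.91, -2.60 and -3.88, with lower values in ears than in 1cm Tassel.

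The 4 L leaves were set against the 4 N leaves, with leaf position as a block. limma called 0 ubiquitous circRNAs and 0 of the 6655 circRNAs above 0 in at least 2 of these 8 libraries. An unadjusted p under 0.05 was found for 4 ubiquitous circRNAs (0.985%), against 2.48% of all tested. The percentage called was 0 over all tested. edgeR with TMM factors, edgeR with the deposited scale and DESeq2 also called 0 ubiquitous circRNAs. The median log2 fold change was -0.07.

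The kernel libraries, 1 each, were set beside the median share of the 24 other libraries without a test. In Embryo the share was at least 2 times this median for 84 ubiquitous circRNAs, and it was at most 0.5 times it for 118. The ratio ranged from 0.0243 to 21.6. In Endosperm these numbers were 36 and 62, with ratios of 0.0557 to 6.89. These counts were not taken for other libraries or over all circRNAs. Embryo held 21556 reads, with a median of 10 per ubiquitous circRNA and 23 of them at 1 read. Endosperm held 46157 reads, with a median of 24.5 and 0 of them at 1 read. The part of depth was not tested. By ratio of signal, the 3 largest in Embryo were those of ZmCirc026861, ZmCirc004391 and ZmCirc018937. Their ratios of share were 21.6, 13.1 and 9.90. ZmCirc004391 had a signal of 9530 from 191 reads in Embryo, 2339 in Endosperm and 384 to 2458 in the 24 others. ZmCirc018937 had 6387 in Embryo, against 162 to 2045 in the 24 others. ZmCirc026861 was a scarce circRNA, with 44 reads in Embryo, 30 in Endosperm and signals of 40.5 to 438 elsewhere, below 2195 in Embryo and 1132 in Endosperm. In Endosperm the 3 largest ratios of signal were those of ZmCirc043640, ZmCirc026861 and ZmCirc026344. Their ratios of share were 6.83, 6.89 and 4.34, and that of ZmCirc026861 was the largest of the set. ZmCirc043640 held 1.09% of the reads in Endosperm, with 501 reads, and 0.0186% in Embryo, with 4 reads. ZmCirc026162 had 75 reads in Endosperm and 1 in Embryo.

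**Figure D5:**
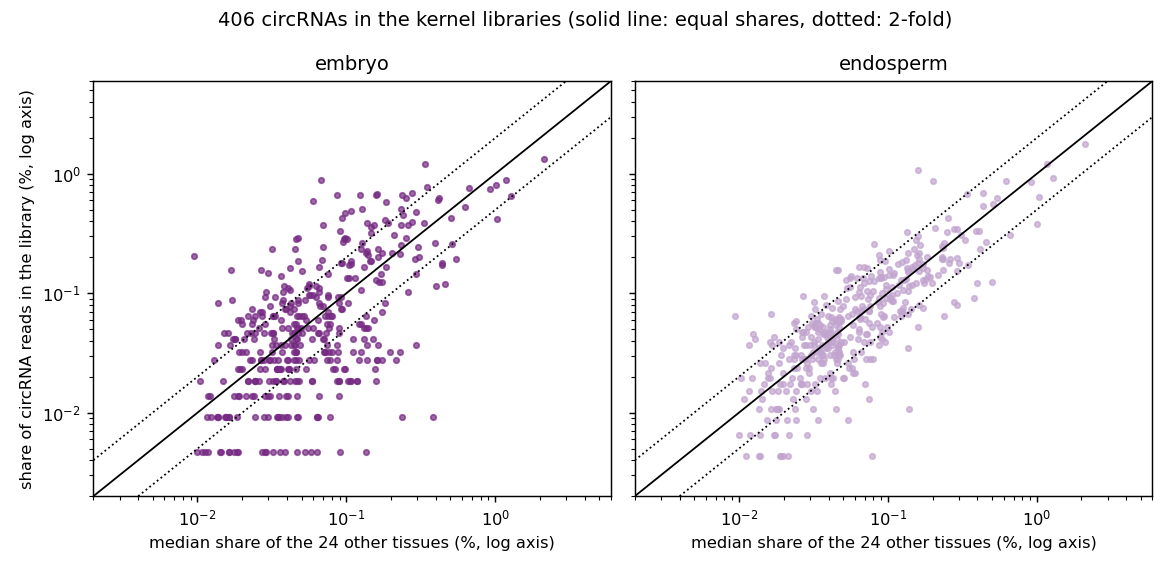
Share of recovered circRNA reads (%) of the 406 ubiquitous circRNAs in Embryo (left) and Endosperm (right) against their median share in the 24 other libraries, on log axes. The solid line marks equal shares and the dotted lines 2-fold differences. Points scatter more widely in Embryo, with 84 circRNAs at least 2-fold above and 118 at least 2-fold below, against 36 and 62 in Endosperm. Embryo held 21556 reads and Endosperm 46157. The rows of points at the bottom are circRNAs with few reads.

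The class in which the ubiquitous circRNAs were highest also depended on the scale. By mean signal over the 5 classes with at least 2 libraries, inflorescence was highest for 259, stem for 74, leaf for 40, root for 27 and SAM for 6. By mean share leaf was highest for 114, root for 99, inflorescence for 93, stem for 52 and SAM for 48. The lowest mean share was in stem for 133, leaf for 87, root for 71, inflorescence for 67 and SAM for 48. These counts were not taken over all circRNAs. Among single libraries, 1cm Tassel had the highest signal of 147 ubiquitous circRNAs and the highest share of 3. Embryo had the highest share of 67 and the highest signal of 15, and 2mm Ear had the highest share of 36 and the highest signal of 7.

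The shares of the 406 circRNAs also grouped most libraries by organ class. For 23 of the 24 libraries with a class partner, the library with the highest Spearman's rho across the 406 shares was of the same class. Each of the 8 L and N leaf libraries was nearest to the other library of its leaf position, so these matches do not separate position from class. Nearest libraries were not determined over all circRNAs. The exception was Husk leaf, which was nearest to Stem (rho 0.815). Embryo was nearest to Husk leaf at rho 0.591 and Endosperm to SAM at V3 at rho 0.805. The highest rho of any library with its nearest was 0.944 and the lowest rho of any pair was 0.358. These correlations run across circRNAs, which are not independent replicates.

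Some ubiquitous circRNAs carried consecutive numbers in their names, and 18 such pairs were found. The correlation of their log2 shares over the 26 libraries had a median Pearson's r of 0.49, against 0.02 over all 82215 pairs of the 406. It ranged from -0.60 in ZmCirc039124 and ZmCirc039125 to 0.96 in ZmCirc001460 and ZmCirc001461, both named above for lower values in inflorescence. ZmCirc045151 and ZmCirc045152 followed with 0.92 and ZmCirc008450 and ZmCirc008451 with 0.88. These values are descriptions, since all points come from the same 26 libraries and shares of a library depend on each other. The sources used here do not say how the numbers were assigned.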

How the data were processed

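The circRNA values were deposited by the authors in 1 table for 26 libraries, in a unit named CPM. They were treated as signal, because most columns of the deposited signal sum to more than such counts can. Per the submitters' processing notes, the series used the build B73 RefGen_v4 and the tools cutadapt 1.9.1, Bowtie 1.1.2, HISAT, SAMtools 1.9, StringTie and RSEM, with no role given for each. The labels do not say how circRNAs were called, and how reads that match several circRNAs were assigned is unknown. The design had allowed for CPM, and its test for normalized values was kept.

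Reads were recovered by dividing each column by its smallest value above 0, and 100% of values came out whole. Organ classes were compared in R 4.3.3 by limma 3.58.1, whose variance prior followed the mean signal. edgeR 4.0.16 (quasi-likelihood) and DESeq2 1.42.0 were run on recovered reads as alternatives. Scripts were tested on simulated data. L and N libraries of the same leaf position deviated together over the 406 circRNAs (r = 0.22 to 0.52), so position was a block. No 2 libraries held identical reads (0 pairs).

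The members and lists were chosen with earlier results of these data known. Named circRNAs are the 8 with the largest mean share, the 8 (inflorescence against leaf) or 3 called members with the largest change in each direction, the 4 with the smallest and the 4 with the largest SD of log2 signal, and the 3 with the largest ratio in each kernel library.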

Additional observations from a re-analysis of the deposited data

Results flagged for a closer look

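In 12 of 114 groups of 4 to 10 libraries of named circRNAs, 1 library lay far from the others by Dixon's criterion. The nominal rate of this criterion is about 1 in 20, or 5.7, for independent values with a normal distribution. The groups reuse the same libraries and many circRNAs were named for large differences, so the 2 numbers cannot show an excess. First Leaf N at V3 stood above the 3 other N leaves in ZmCirc007160 with a signal of 49810 (others 25442 to 29001), in ZmCirc044048 with 17222 (11477 to 11795), in ZmCirc001460 with 11460 (5886 to 6113), in ZmCirc024310 with 6338 (1767 to 2269) and in ZmCirc024698 with 2945 (509 to 858). The 1cm Tassel stood above the 5 other inflorescence libraries in ZmCirc043640 with 59038 (7708 to 16215), in ZmCirc029253 with 10291 (2815 to 5337), in ZmCirc003379 with 5833 (946 to 2758), in ZmCirc051340 with 4958 (800 to 2263) and in ZmCirc026162 with 3208 (875 to 1407). These 2 libraries had the largest summed signal of their class, and the part of the scale was not tested. By share, First Leaf N was not the highest N leaf in ZmCirc007160 (2.45%, others 2.07 to 2.65%). Nor was it in ZmCirc044048 (0.848%, others 0.903 to 1.06%). In ZmCirc001460 it was the highest with 0.564% (others 0.468 to 0.537%), and so it was in ZmCirc024310 and ZmCirc024698. The 1cm Tassel was the highest inflorescence library by share in all circRNAs named for it here. The 2mm Tassel stood above the other inflorescence libraries in ZmCirc007057 with 2047 (822 to 1167). Topmost Leaf L stood above the 3 other L leaves in ZmCirc030109 with 12112 (4361 to 5191).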

How the results depend on the processing

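Of 34 named fold changes against leaf, 23 kept their direction and call under every setting tried, and none changed sign; 28 single values lost the call, up to 5 under one setting. In inflorescence against leaf, the deposited scale gave 189 higher and 12 lower ubiquitous circRNAs, against 29.8 and 4.15% of all tested. Libraries rescaled to their own sum gave 66 and 70, against 17.1 and 5.87%. Quantile normalization gave 75 and 64, against 11.6 and 6.39%. edgeR with TMM factors gave 120 and 37, against 23.7 and 8.18%, and DESeq2 65 and 73, against 7.89 and 6.3%. Without the filter on low values 7 were lower, against 0.273% of all tested. Without 1cm Tassel, a setting added after the data were seen, 25 were lower, against 4.62%. The filter's removal left 43 calls for SAM (10.6%), against 1.32% of all tested. With all leaf libraries kept and 1 root or stem library left, fewer were called, both among the ubiquitous circRNAs and among all tested. Leaving out each SAM library in turn gave 41 to 75 calls (10.1 to 18.5%), against 9.64 to 14.1% of all tested. Leaving out each ear or tassel gave 0 to 4, and each leaf position 0 for L against N. A lone library was assumed to vary like the other classes. Root gave 8 calls (1.97%) with a pseudocount 10 times larger, against 1.71% of all tested. Rescaled values gave 41 (10.1%, against 7.31%) and quantile normalization 42 (10.3%, against 6.55%). For root, edgeR with TMM factors gave 36 (8.87%, against 7.03%) and DESeq2 60 (14.8%, against 4.05%). Ear against tassel gave 2 calls with edgeR and TMM factors and 1 with edgeR on the deposited scale, which was added after the data were seen. At least 5 or 10 reads in every library left 166 or 86 circRNAs. Without the replicate block of leaf position, L against N gave 0 calls, and the block changed no call. DESeq2's size factors rest on circRNAs without zeros, which are the ubiquitous ones. The cause of these changes was not tested. Calls in root and stem rest on 2 libraries each, and the lowest members on 1 read.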
